A study of Mus musculus with 10 samples.

Results

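Oxidative phosphorylation is the mitochondrial process in which electrons from nutrients pass along a chain of protein complexes to oxygen, and the proton gradient this builds drives ATP synthesis. Complex I (NADH dehydrogenase) and complex II (succinate dehydrogenase) feed electrons into the chain, complex III hands them to cytochrome c, complex IV (cytochrome c oxidase) passes them to oxygen, and complex V is the ATP synthase. Most subunits are encoded in the nucleus and a small set in mitochondrial DNA. In the embryonic heart the mitochondria mature while the muscle begins to beat, and several subunits of complex IV exist in a common form and in a heart and skeletal muscle form.

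The genes described here are the nuclear-encoded subunits of these complexes, found by symbol (Nduf, Sdh, Uqcr, Cox4 to Cox8 and Atp5 names) among array rows annotated to a single gene, with the brightest row kept for each gene. The rule gave 79 genes of the 19938 with a row of their own: 34 of complex I, 4 of complex II, 8 of complex III, 17 of complex IV and 16 of complex V. A level is the deposited log2 signal of a probe set, and a difference of 1 on this scale is a doubling. Of the 79 genes, 78 had a mean level above the background, which was set at 6.503, the 95th percentile of 1205 olfactory and vomeronasal receptor probe sets. Cox7b2, the testis form of a complex IV subunit, was the exception, with levels of 4.98 to 5.18. Genes whose probe sets name several genes, among them Ndufb4 and Cox7c, were not analysed here.

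The arrays compared mRNA of mouse embryonic hearts with and without CAR, the coxsackie and adenovirus receptor, an adhesion protein of cell contacts encoded by Cxadr. All embryos came from breeding of mice carrying 1 inactivated copy (CAR +/-) and were collected at E10.5. The WT group consisted of 5 samples with both copies intact, the CAR KO group of 5 samples with the gene inactivated in every cell of the body (line B6.Cg-Cxadr tm1/Fgr). Each sample pooled 3 untreated whole hearts, so it held muscle, endocardium, cushion tissue, epicardium and blood together. The sources used here do not say whether the samples of a group came from separate litters, and p-values measure the spread between these samples.

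Cxadr checked the genotype labels, with levels of 8.24 to 8.66 in WT and 6.23 to 6.69 in CAR KO samples and a log2 fold change of -1.91 (95% interval -2.14 to -1.69, limma adjusted p = 1.4e-05). It was the single probe set called at an adjusted p of 0.05 among 28944, or 0.00345% of them. All 20 cardiomyocyte markers were above background, and the mean over their levels was 12.65 to 12.92 in WT and 12.53 to 12.95 in CAR KO samples. CAR KO sample 5 was the lowest of the 10 samples for 16 of these 20 markers, and WT sample 5 was the lowest for the other 4. A list of liver and yolk sac transcripts, of which 16 of 17 measured were above background, had mean levels of 7.24 to 8.70 in WT and 6.88 to 9.53 in CAR KO samples. The highest values were in CAR KO sample 5 (9.53) and WT sample 5 (8.70). WT sample 2 was close to WT sample 5, at 0.82 and 0.85 above the mean over the 10 samples. Afp, an abundant liver and yolk sac transcript, was at 12.51 in CAR KO sample 5 and at 6.70 to 10.68 in the other CAR KO samples. Values per gene are over all 10 samples unless stated, and the counts and medians over the subunits are given again below without these samples.

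No subunit of any complex differed between CAR KO and WT hearts at an adjusted p of 0.05. In CAR KO hearts 32 subunits were higher and 47 lower, with a median log2 fold change of -0.0064 against 0.0108 over all probe sets and -0.0001 over the 14688 genes above background. The limma adjusted p was 1 for every subunit. The differences ran from -0.14 for Atp5md to 0.13 for Cox4i2. The groups overlapped for all 79 subunits, and did not for 0.359% of all probe sets. Without adjustment, 1 subunit had a p under 0.05, Uqcrb, lower in CAR KO hearts, where 2.4% of all probe sets passed in either direction, 1.43% as lower and 0.978% as higher.

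Because a large p does not show equal levels, the 95% interval of each difference was set against fixed folds. For 70 of the 79 subunits the whole interval lay within 1.2-fold in either direction, against 60.6% of all probe sets and 63.9% of genes above background. For all 79 it lay within 1.5-fold, against 97.3% and 97.1%. The 9 subunits whose interval passed 1.2-fold were Ndufa11 and Ndufs5 of complex I, Cox6a2, Cox7a1, Cox4i2, Cox8b and Cox8c of complex IV, and Atp5md and Atp5e of complex V.

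**Figure D1:**
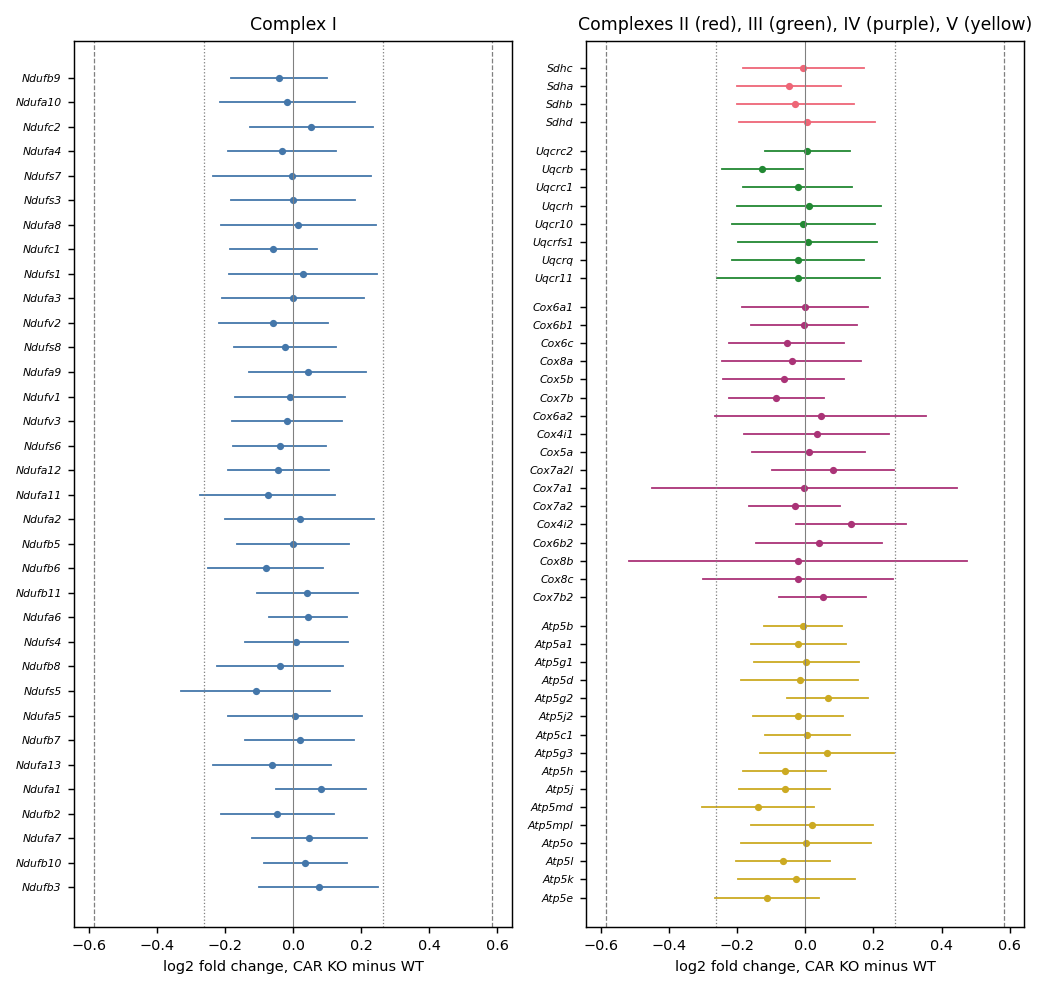
Log2 fold change, CAR KO minus WT, for the 79 subunits, with complex I on the left and complexes II to V on the right. Points are the differences and lines their 95% intervals from the limma fit over 5 samples per group, and the dotted and dashed lines mark 1.2-fold and 1.5-fold. All intervals stay inside the 1.5-fold lines, and the widest belong to Cox7a1 and Cox8b.

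Complex I, the entry point for electrons from NADH, showed 15 subunits higher and 19 lower in CAR KO hearts, with a median log2 fold change of -0.0028, and 32 of its 34 intervals lay within 1.2-fold. Ndufb9, an accessory subunit of the membrane arm, was at 12.82, 12.92, 12.81, 12.87 and 12.88 in WT samples 1 to 5 and 12.87, 12.87, 12.82, 12.92 and 12.61 in CAR KO samples 1 to 5. The last CAR KO sample was the lowest of all 10 and the other 9 lay together. Ndufa10, another accessory subunit, averaged 12.32 ± 0.069 in WT and 12.31 ± 0.20 in CAR KO hearts (SD, n = 5 each), a log2 fold change of -0.017 (95% interval -0.21 to 0.18).

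Ndufc2, a small membrane subunit, behaved differently from these, at 12.09, 12.47, 12.40, 12.37 and 12.10 in WT samples 1 to 5 and 12.23, 12.40, 12.36, 12.35 and 12.36 in CAR KO samples 1 to 5. Its lowest values were in WT samples 1 and 5, and CAR KO sample 5 was within the range of the other CAR KO samples. Ndufa1, a membrane arm subunit encoded on the X chromosome, had the smallest p of complex I, with a log2 fold change of 0.082 (95% interval -0.05 to 0.21). Ndufs5, which faces the intermembrane space, came next with -0.11 (95% interval -0.33 to 0.11).

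The iron-sulphur and flavin subunits that carry electrons inside complex I were looked at after their values were seen. Ndufv1, which binds the flavin, differed by -0.0093 (95% interval -0.17 to 0.15), and Ndufs7 and Ndufs8, which hold iron-sulphur clusters, by -0.0039 (95% interval -0.24 to 0.23) and -0.025 (95% interval -0.17 to 0.13). Ndufs1, the largest iron-sulphur subunit, was lowest in WT sample 5, at 11.33, where the other 4 WT samples were at 11.61 to 11.88. Ndufa4 carries a complex I symbol, although its protein is now known as a part of complex IV. It differed by -0.033 (95% interval -0.19 to 0.13).

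Complex II oxidises succinate and is also an enzyme of the citric acid cycle. Of its 4 subunits 1 was higher and 3 were lower in CAR KO hearts, with a median of -0.018, and all 4 intervals lay within 1.2-fold. Sdha, the flavoprotein that binds succinate, was at 12.26, 12.36, 12.47, 12.40 and 12.22 in WT samples 1 to 5 and 12.31, 12.33, 12.29, 12.42 and 12.13 in CAR KO samples 1 to 5. The groups overlapped and the lowest value was again that of CAR KO sample 5. The iron-sulphur subunit Sdhb differed by -0.03 (95% interval -0.20 to 0.14), and the membrane anchors Sdhc and Sdhd by -0.0059 (95% interval -0.18 to 0.17) and 0.0053 (95% interval -0.20 to 0.21).

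Complex III moves electrons from ubiquinol to cytochrome c. It had 3 subunits higher and 5 lower, a median of -0.0134 and all 8 intervals within 1.2-fold. Uqcrb (chr13:66900576-66905350, GRCm38.p6), a small subunit at the ubiquinone site, was at 12.74, 12.66, 12.80, 12.78 and 12.71 in WT samples 1 to 5 and 12.65, 12.53, 12.70, 12.60 and 12.58 in CAR KO samples 1 to 5. Every CAR KO value was below 12.71 and 4 of the 5 WT values were at or above it, so the groups met only at WT sample 2 and the highest CAR KO sample. The log2 fold change was -0.13 (95% interval -0.24 to -0.0084), with an unadjusted p under 0.05 and a limma adjusted p = 1.

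Another 2 probe sets are annotated to Uqcrb, with differences of -0.10 and -0.16, the latter with an unadjusted p under 0.05 and neither with an adjusted call. The 3 probe sets are no independent repeats, since they read the same samples and may read copies of the gene. The difference of Uqcrb was -0.12 (95% interval -0.24 to 0.0073) without CAR KO sample 5. Uqcrc1 and Uqcrc2, the large core proteins of the matrix side, differed by -0.022 (95% interval -0.18 to 0.14) and 0.0054 (95% interval -0.12 to 0.13).

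Complex IV had 7 subunits higher and 10 lower, a median of -0.0027 and 12 of 17 intervals within 1.2-fold. The common subunit Cox6a1 averaged 13.00 ± 0.054 in WT and 13.00 ± 0.19 in CAR KO hearts (SD, n = 5 each), and Cox6c, a small subunit with a single form, 12.60 ± 0.068 in WT and 12.55 ± 0.16 in CAR KO hearts. Cox7b, a small membrane subunit, differed by -0.086 (95% interval -0.23 to 0.054), and Cox7a2l, a relative of the COX7A subunits that joins complexes III and IV in supercomplexes, by 0.081 (95% interval -0.099 to 0.26).

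Complex V had 6 subunits higher and 10 lower, a median of -0.0189 and 14 of 16 intervals within 1.2-fold. The catalytic beta subunit Atp5b was at 13.76, 13.74, 13.82, 13.81 and 13.69 in WT samples 1 to 5 and 13.78, 13.76, 13.81, 13.78 and 13.66 in CAR KO samples 1 to 5, and its groups overlapped almost fully. The alpha subunit Atp5a1 averaged 13.48 ± 0.096 in WT and 13.46 ± 0.082 in CAR KO hearts (SD, n = 5 each). Atp5g1, Atp5g2 and Atp5g3 encode the same mature c-ring protein from separate genes, and they differed by 0.0029 (95% interval -0.15 to 0.16), 0.066 (95% interval -0.053 to 0.18) and 0.064 (95% interval -0.13 to 0.26).

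Atp5md, a small accessory subunit linked to ATP synthase dimers, had the largest difference of all members on the lower side, with 12.35, 12.07, 12.24, 12.30 and 12.26 in WT samples 1 to 5 and 12.23, 12.06, 12.24, 12.08 and 11.93 in CAR KO samples 1 to 5. CAR KO samples 1, 3 and 4 lay inside the WT range and samples 2 and 5 below it. The log2 fold change was -0.14 (95% interval -0.30 to 0.025). Atp5e, the epsilon subunit of the central stalk, differed by -0.11 (95% interval -0.27 to 0.041).

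The members with the widest range over the samples were tissue forms of complex IV. Cox7a1 (chr7:30184171-30186030) encodes the heart and skeletal muscle form of subunit COX7A and Cox7a2 (chr9:79755241-79771422) the form found in most tissues. Cox8b (chr7:140898942-140900446) and Cox8a (chr19:7215158-7217616) are the corresponding pair for subunit COX8. Since Cox7a1 and Cox8b moved furthest between samples and their common partners did not, the 250 bases before the RefSeq start of each of the 4 genes are shown (GRCm38.p6, 5′ to 3′ on the gene's strand, with CpG dinucleotides in capitals). For Cox7a2 that start is of a transcript beginning inside the gene's span, and for the other 3 it is the outer start of the gene.
Cox7a1, chr7:30183921-30184170, plus strand: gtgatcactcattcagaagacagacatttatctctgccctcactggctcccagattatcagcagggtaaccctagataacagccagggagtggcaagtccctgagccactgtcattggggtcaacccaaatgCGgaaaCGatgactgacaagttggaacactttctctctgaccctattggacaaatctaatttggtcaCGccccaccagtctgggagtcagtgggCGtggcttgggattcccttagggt
Cox7a2, chr9:79759854-79760103, minus strand: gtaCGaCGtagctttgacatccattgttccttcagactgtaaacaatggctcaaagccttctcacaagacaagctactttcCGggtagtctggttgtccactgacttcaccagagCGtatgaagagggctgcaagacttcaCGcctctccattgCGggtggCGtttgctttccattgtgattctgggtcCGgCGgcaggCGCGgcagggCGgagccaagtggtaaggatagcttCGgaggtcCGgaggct
Cox8b, chr7:140900447-140900696, minus strand: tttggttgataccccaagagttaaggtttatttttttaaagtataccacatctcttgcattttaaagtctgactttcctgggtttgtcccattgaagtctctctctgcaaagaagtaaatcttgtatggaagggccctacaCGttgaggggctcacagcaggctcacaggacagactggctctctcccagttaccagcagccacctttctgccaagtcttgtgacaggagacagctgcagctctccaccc
Cox8a, chr19:7217617-7217866, minus strand: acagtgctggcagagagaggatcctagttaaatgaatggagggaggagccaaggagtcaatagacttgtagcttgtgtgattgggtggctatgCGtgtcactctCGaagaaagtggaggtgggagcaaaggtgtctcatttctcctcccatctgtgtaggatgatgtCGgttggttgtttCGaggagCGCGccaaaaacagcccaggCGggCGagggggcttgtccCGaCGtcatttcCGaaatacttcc

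These upstream stretches held 4 CpG for Cox7a1 against 14 for Cox7a2, and 1 for Cox8b against 11 for Cox8a. The median was 14 over the promoters of the members, 6 over all 32851 promoters of the table and 14 over those of genes above background. CpG number is a description of the sequence and no regulation was measured.

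Cox7a1 was at 10.82, 10.89, 10.79, 10.90 and 10.52 in WT samples 1 to 5 and 10.88, 11.04, 10.87, 11.22 and 9.89 in CAR KO samples 1 to 5. CAR KO sample 5 lay far below the rest, WT sample 5 was next, and CAR KO sample 4 was the highest. The log2 fold change was -0.0027 (95% interval -0.45 to 0.44), and without CAR KO sample 5 it was 0.22 (95% interval 0.0070 to 0.43), with an unadjusted p under 0.05 and no adjusted call. Cox7a2 was at 10.65, 10.71, 10.61, 10.62 and 10.55 in WT samples 1 to 5 and 10.58, 10.66, 10.64, 10.67 and 10.43 in CAR KO samples 1 to 5, a much narrower spread with the same lowest sample.

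Cox8b was at 8.03, 8.69, 8.45, 8.55 and 8.46 in WT samples 1 to 5 and 8.54, 8.81, 8.27, 8.92 and 7.54 in CAR KO samples 1 to 5. Its low values were those of CAR KO sample 5 and WT sample 1, and its difference between groups was -0.022 (95% interval -0.52 to 0.48), the widest interval of all members. The difference turned to 0.20 (95% interval -0.13 to 0.53) without CAR KO sample 5, and was 0.20 without both samples numbered 5 and 0.29 when WT samples 2 and 5 and CAR KO sample 5 were left out, with no p under 0.05 in any of them. Cox8a differed by -0.041 (95% interval -0.24 to 0.16). Cox8c, known from testis, had low levels of 6.82 to 7.53 over the 10 samples, and its difference was -0.022 (95% interval -0.30 to 0.26).

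Cox6a2 (chr7:128205435-128206366), the heart and skeletal muscle form of COX6A, was at 11.49, 11.65, 11.49, 11.55 and 11.23 in WT samples 1 to 5 and 11.67, 11.81, 11.50, 11.70 and 10.97 in CAR KO samples 1 to 5. Both samples numbered 5 were below all others. The log2 fold change was 0.045 (95% interval -0.27 to 0.36), and 0.18 (95% interval -0.013 to 0.38) without CAR KO sample 5.

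Cox4i2 (chr2:152753916-152765039), a form of COX4 known from lung and induced by low oxygen, did not share this pattern, with 8.75, 8.73, 8.81, 8.88 and 9.01 in WT samples 1 to 5 and 8.96, 9.16, 8.89, 8.96 and 8.88 in CAR KO samples 1 to 5. The CAR KO values lay between 8.88 and 9.16 and 4 of 5 WT values between 8.73 and 8.88, with WT sample 5 among the CAR KO values. Its difference of 0.13 (95% interval -0.028 to 0.29) was the largest on the higher side, and it was 0.20 without both samples numbered 5, the setting in which it was the single member with a p under 0.05 (2.65% of all probe sets passed there). Cox4i1, the common form, differed by 0.033 (95% interval -0.18 to 0.25). Cox6b2, the testis form of COX6B, was highest in WT sample 5, at 8.78, and differed by 0.04 (95% interval -0.14 to 0.22) beside -0.0049 (95% interval -0.16 to 0.15) for the common Cox6b1.

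The difference between a tissue form and the common form within a sample, centred over the 10 samples, takes away what both forms share. For Cox7a1 minus Cox7a2 it was -0.0015, 0.012, 0.0092, 0.11 and -0.20 in WT samples 1 to 5 and 0.13, 0.21, 0.059, 0.38 and -0.71 in CAR KO samples 1 to 5. The CAR KO samples thus spanned the WT samples on both sides, with a group difference of 0.028 with CAR KO sample 5 and 0.21 without it. The corresponding value of CAR KO sample 5 was -0.50 for Cox8b minus Cox8a and -0.22 for Cox6a2 minus Cox6a1. It was 0.31 for Cox4i2 minus Cox4i1 and 0.28 for Cox6b2 minus Cox6b1. WT sample 5 lay near it for the Cox6a2, Cox4i2 and Cox6b2 pairs, at -0.195, 0.23 and 0.26. For Cox8b minus Cox8a WT sample 5 was at 0.033 and WT sample 1 at -0.43. All of these differences overlapped between the groups.

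**Figure D2:**
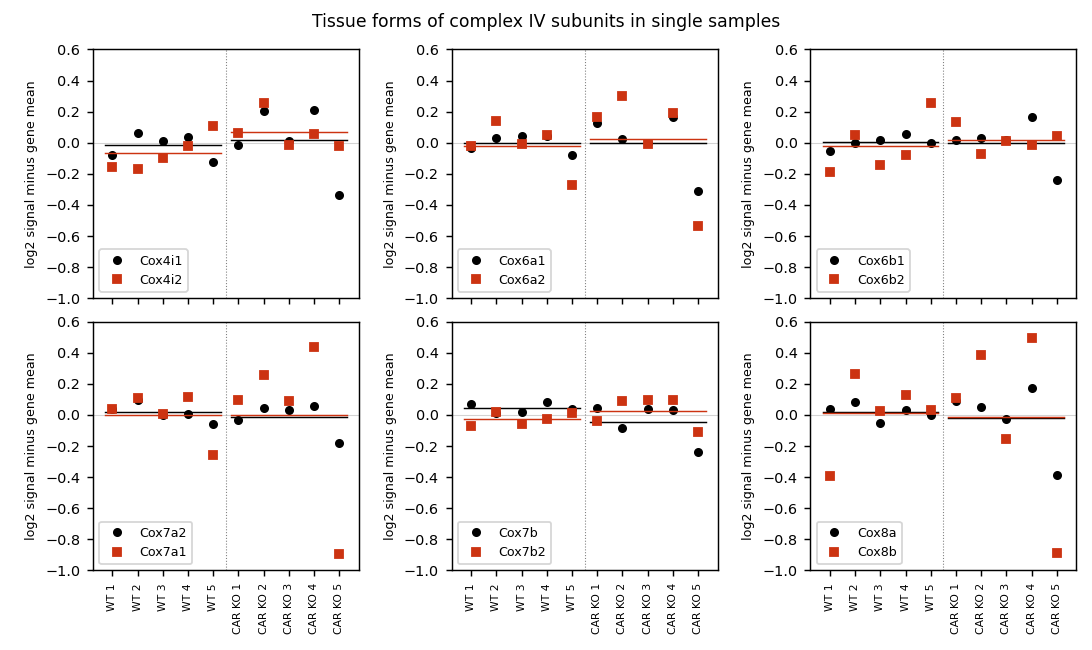
Log2 signal minus the gene's mean over 10 samples for the common form (black) and the other form (red) of 6 complex IV subunits, by sample, with lines at the group means. Cox7a1, Cox8b and Cox6a2 are lowest in CAR KO sample 5, while Cox4i2 and Cox6b2 are near their mean there.

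Deviations of single samples ran through all 5 complexes. The median SD over the 10 samples was 0.119 for the subunits and 0.127 for genes above background. Without CAR KO sample 5 these medians were 0.076 and 0.112. CAR KO sample 5 was the lowest of the 10 samples for 65 of the 79 subunits (82.3%), against 28.3% of genes above background and 24.4% of all probe sets. It was also the highest for 19.8% of genes above background, a larger share than any other sample, and for 0 subunits. So this sample was often extreme in both directions over the array. The count was 26 of 34 for complex I, 4 of 4 for complex II, 6 of 8 for complex III, 15 of 17 for complex IV and 14 of 16 for complex V. The median difference of this sample from the mean of the other 9 was -0.26 over the subunits and -0.046 over genes above background. By complex it was -0.25, -0.32, -0.38, -0.34 and -0.22 for complexes I to V.

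The subunits furthest down in that sample were Cox7a1 and Cox8b, both at -0.99, followed by Cox6a2 at -0.60 and Uqcr11, a small subunit of complex III, at -0.50. The 14 subunits for which another sample was the lowest were Ndufa1, Ndufa6, Ndufa7, Ndufb3, Ndufb10, Ndufc1, Ndufc2, Ndufs1, Uqcrb, Uqcrc2, Cox4i2, Cox6b2, Atp5g3 and Atp5l. Of these Ndufb3, Ndufc2 and Cox6b2 were above the mean of the other samples in it, by 0.067, 0.049 and 0.047. These genes were picked after their values were seen.

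At the other end, CAR KO sample 4 was the highest of the 10 samples for 36 subunits, where 15.5% of genes above background had their highest value in it. Averaged over all 79 subunits, the deviation from each gene's mean was -0.048, 0.055, 0.018, 0.050 and -0.049 in WT samples 1 to 5 and 0.024, 0.060, 0.021, 0.12 and -0.25 in CAR KO samples 1 to 5. CAR KO samples 1 to 4 were all above 0, WT samples lay on both sides of it, and CAR KO sample 5 stood below every other sample.

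**Figure D3:**
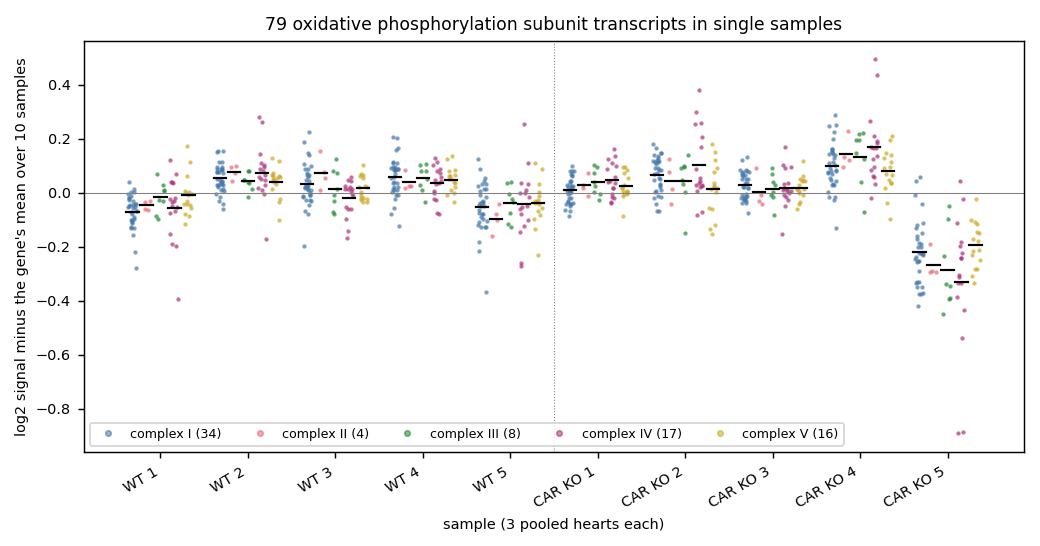
Log2 signal of each of the 79 subunits minus its mean over the 10 samples, by sample and complex. Each point is a gene and each black line the mean of a complex in a sample. In CAR KO sample 5 the means of all 5 complexes are lower than in any other sample, from -0.19 for complex V to -0.33 for complex IV.

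The cardiomyocyte markers were also low in both samples numbered 5, with deviations of -0.18 in WT and -0.31 in CAR KO sample 5 and 0.0052 to 0.11 in the other 8 samples. WT sample 1, as low as WT sample 5 for the subunits, was at 0.060 for these markers. The endothelial and endocardial markers, 12 of 12 above background, were also lowest in CAR KO sample 5, at -0.29, with 10.52 to 10.78 as the range of their mean level in WT and 10.36 to 10.74 in CAR KO samples. The cushion mesenchyme markers, 10 of 10 above background, were highest there, at 0.46, with mean levels of 10.003 to 10.59 in WT and 10.07 to 10.76 in CAR KO samples. Foregut markers, 10 of 10 above background, were highest there too, with mean levels of 7.45 to 8.41 in WT and 7.56 to 8.50 in CAR KO samples. Of the other lists, all 8 epicardial markers were lower in CAR KO hearts, 5 with a p under 0.05 (1.43% of all probe sets passed as lower) and none adjusted, with mean levels of 10.04 to 10.27 in WT and 9.72 to 10.22 in CAR KO samples. This list was lowest in CAR KO sample 5 as well, with a deviation of -0.31, and without that sample 1 of the 8 was higher and 3 had a p under 0.05. Macrophage markers, 9 of 12 above background, ran from 7.18 to 7.71 and from 7.01 to 7.46. Of these 12 markers 10 were lower in CAR KO hearts, 2 with a p under 0.05 and none adjusted. Without CAR KO sample 5 none of the 12 was higher and 4 had a p under 0.05 (3.56% of all probe sets in either direction). Blood markers, 9 of 9 above background, ran from 10.70 to 11.36 and from 10.72 to 11.23. In whole hearts fewer cells of a type and less RNA per cell cannot be told apart, and the part of these markers in the subunit values was not tested.

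CAR KO sample 5 was the lowest for 65 of the 79 subunits. Leaving it out raises their CAR KO mean, so the direction of that move was fixed in advance. Without CAR KO sample 5 the balance of directions turned, with 67 of 79 subunits higher in CAR KO hearts. The median log2 fold change was then 0.051 against 0.019 over all probe sets and 0.0035 over genes above background. In that setting 16970 of 28944 probe sets and 7579 of 14688 genes above background were higher. The sign differed from that over all 10 samples for 35 of the 79. Ndufs7, for example, was at 0.10 in place of -0.0039, and Cox4i1 at 0.12 in place of 0.033. By complex 30 of 34, 3 of 4, 7 of 8, 16 of 17 and 11 of 16 subunits were then higher. Only Cox7a1 and Ndufa1 had a p under 0.05, where 3.56% of all probe sets did, and the smallest adjusted p among the subunits was 0.939. The next settings also leave out CAR KO sample 5. Without both samples numbered 5, 59 subunits were higher with a median of 0.041. Of the 14688 genes above background 7631 were higher there, with a median of 0.0037. Without WT samples 2 and 5 and CAR KO sample 5, the 3 richest in liver transcripts, 61 subunits were higher, with a median of 0.048. Of the 14688 genes above background 7623 were higher in this setting, with a median of 0.0044. Here 5 subunits had a p under 0.05 (4.19% of all probe sets), Cox4i2, Cox7a2l, Ndufa1 and Ndufa7 higher and Uqcrb lower.

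The subunits also moved together from sample to sample. With genotype means removed, the median correlation over all 3081 pairs was 0.733 across 10 samples, 0.711 within a complex and 0.740 between complexes, against 0.113 between subunits and other genes above background. Without CAR KO sample 5 the median was 0.393, against 0.044. The correlations describe 10 samples with shared arrays and RNA, and so are given without a test. Over all 10 samples, the subunits that followed the others least were Cox6b2, Atp5l, Uqcrb, Ndufb3, Ndufc1 and Cox4i2. Their median correlations to the other members were -0.15, -0.046, 0.083, 0.11, 0.12 and 0.18. All of them are among the subunits listed above whose lowest value was not in CAR KO sample 5. The correlations over 10 samples depend on that sample, with medians of 0.733 with it and 0.393 without it. This overlap is therefore no separate finding. The ranking was not made without that sample.

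The genes around the complexes were described with lists of the same pathway. Of 17 enzymes of the citric acid cycle and pyruvate dehydrogenase, which produce the NADH and succinate that feed the chain, 8 were higher and 9 lower in CAR KO hearts and none had a p under 0.05. Cs, citrate synthase, had the smallest p of this list, with 13.07, 13.02, 13.06, 13.13 and 12.97 in WT samples 1 to 5 and 13.06, 12.92, 13.00, 13.00 and 12.85 in CAR KO samples 1 to 5. The groups overlapped, CAR KO sample 5 was the lowest, and the difference was -0.082 (95% interval -0.21 to 0.043). The lowest sample was CAR KO sample 5 for 10 of these 17 genes, with a median of -0.21 from the other samples. WT sample 5 was the lowest for 6 of the 17. The mean deviation of the list was close in both, at -0.165 in WT sample 5 and -0.183 in CAR KO sample 5.

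Assembly factors build the complexes but are no part of them. The lowest value was in CAR KO sample 5 for 6 of 14 complex I assembly factors, 4 of 10 for complexes II and III, 4 of 19 for complex IV and 0 of 3 for complex V, with medians of -0.041, -0.11, -0.061 and 0.019. The same medians were -0.25, -0.32, -0.38, -0.34 and -0.22 for the subunits of complexes I to V, and the difference between factors and subunits was not tested. Between genotypes 23 of these 46 factors were higher and 23 lower, none with a p under 0.05. The genes with the smallest p of each list were Ndufaf7 with 0.075 (95% interval -0.05 to 0.20), Uqcc3 with 0.12 (95% interval -0.014 to 0.26), Cox10, a heme enzyme for complex IV, with -0.081 (95% interval -0.20 to 0.037), and Tmem70 with 0.035 (95% interval -0.10 to 0.17).

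Among 19 regulators of mitochondrial biogenesis and mitochondrial DNA, 9 were higher and 10 lower, and 1 had a p under 0.05, where 2.4% of all probe sets did. This was Ssbp1, the single-stranded DNA binding protein of mitochondrial DNA, with 10.14, 10.31, 10.38, 10.28 and 10.27 in WT samples 1 to 5 and 10.31, 10.32, 10.51, 10.44 and 10.61 in CAR KO samples 1 to 5. The CAR KO values were at or above 10.31 and the WT values at or below 10.38, and the difference was 0.16 (95% interval 0.0026 to 0.32), with no adjusted call. Its highest value was that of CAR KO sample 5, and without that sample the difference was 0.12 (95% interval -0.031 to 0.27), no longer with a p under 0.05. It was also 0.12 without both samples numbered 5 and 0.13 without the 3 liver-rich samples, again with no p under 0.05.

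CAR KO sample 5 was the lowest for 5 of these 19 genes (26.3%), no larger a share than the 28.3% of genes above background. The median of the 19 in that sample was 0.15 above the other samples. The 5 genes lowest in it were Ppargc1a, Ppargc1b, Esrra, Esrrb and Esrrg. Ppargc1a and Ppargc1b, which encode the coactivators PGC-1alpha and PGC-1beta, were at -0.37 and -0.36 from the other samples. Esrra, Esrrb and Esrrg, the estrogen-related receptors, were at -0.37, -0.45 and -0.47. Nrf1 and Gabpa, nuclear factors named for respiratory genes, and Tfam, which packs mitochondrial DNA, were higher in it, by 0.15, 0.11 and 0.26. These genes were picked after their values were seen. With a count no larger than the share of genes above background, no pattern among them is claimed. A link to the subunit values was not tested. Esrrg was at 10.80, 10.64, 10.67, 10.54 and 10.26 in WT samples 1 to 5 and 10.79, 10.75, 10.56, 10.88 and 10.18 in CAR KO samples 1 to 5, low in both samples numbered 5, and Nrf1 was at 9.10, 9.24, 9.25, 9.08 and 9.31 in WT samples 1 to 5 and 9.13, 9.15, 9.21, 9.19 and 9.33 in CAR KO samples 1 to 5.

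Of the subunits encoded in mitochondrial DNA, COX2 of complex IV and ND3 of complex I were measured. COX2 was at 13.55, 13.27, 13.52, 13.49 and 13.55 in WT samples 1 to 5 and 13.44, 13.31, 13.50, 13.30 and 13.53 in CAR KO samples 1 to 5, with a difference of -0.061 (95% interval -0.22 to 0.099), and ND3 differed by -0.065 (95% interval -0.27 to 0.14). Both were higher in CAR KO sample 5 than in the mean of the other samples, by 0.094 and 0.086, where the nuclear subunits of complexes I and IV had medians of -0.25 and -0.34. The COX2 value of that sample lay inside the WT range of 13.27 to 13.55, and the median SD of the 2 genes over the 10 samples was 0.13. With only 2 genes measured, a contrast with the nuclear subunits was not tested.

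A further 8 genes that belong to the chain but not to the naming rule were also without an adjusted call. The smallest p was that of Ndufa4l2, a relative of Ndufa4 known to be induced by low oxygen, with 8.35, 8.97, 8.98, 9.22 and 8.96 in WT samples 1 to 5 and 8.97, 9.67, 9.16, 8.82 and 9.19 in CAR KO samples 1 to 5. The CAR KO values lay inside a wide WT range except for sample 2, and the difference was 0.27 (95% interval -0.11 to 0.65). It was 0.13 without WT sample 1, 0.14 without CAR KO sample 2 and 0.098 with array weights. Cytochrome c (Cycs) and cytochrome c1 (Cyc1) differed by -0.081 (95% interval -0.22 to 0.057) and -0.026 (95% interval -0.19 to 0.14).

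**Figure D4:**
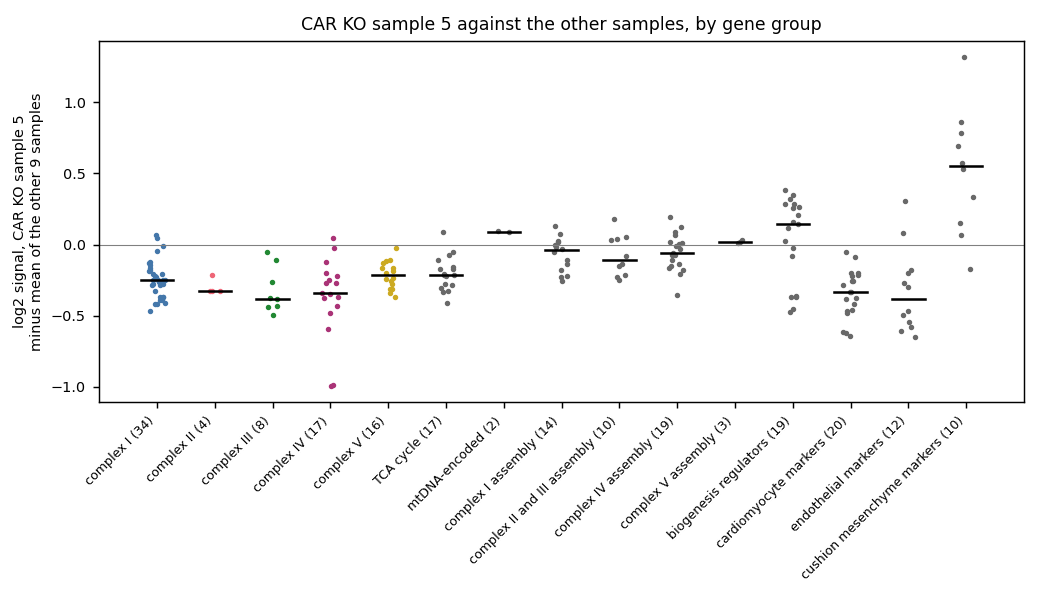
Log2 signal in CAR KO sample 5 minus the mean of the other 9 samples, for the genes of each complex, the pathway lists and marker lists (number of genes in parentheses). Points are genes and black lines medians. The medians of the complexes lie between -0.22 and -0.38, beside -0.21 for the citric acid cycle (TCA), -0.33 for cardiomyocyte and -0.38 for endothelial markers, and the assembly factor medians lie between -0.11 and 0.019.

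For 15 of the 79 subunits more than 1 probe set named the gene alone, which gave 23 further probe sets, all above background. Their correlation with the brightest probe set over the 10 samples ran from 0.737 to 0.9996 with a median of 0.934. In 16 of the 23 CAR KO sample 5 was the lowest, and 1, of Uqcrb, had an unadjusted p under 0.05. Atp5l, with 6 probe sets, showed the same absence of a low value in CAR KO sample 5 in each of them. Subunit genes have many processed copies in the genome, and signals of probe sets that read such copies cannot be told apart from those of the gene.

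Promoter sequences from RefSeq (GRCm38.p6) were at hand for 65 members with 70 promoters, and the 250 bases before each start were searched on both strands for short motifs. The NRF-1 core GCGCATGC, the letters bound by nuclear respiratory factor 1, was in 8 of the 70 (11.4%), against 2.26% of all promoters and 3.79% of those of genes above background. The 8 stretches are shown with up to 10 bases on each side, 5′ to 3′ on the gene's strand, with the core or its reverse complement in capitals.
Atp5g2, chr15:102671072-102671099, minus strand: ggctccggccGCGCATGCgcagagcctt
Atp5k, chr5:108434432-108434459, minus strand: tttcactgcgGCGCATGCgcctttctgg
Atp5l, chr9:44920965-44920992, minus strand: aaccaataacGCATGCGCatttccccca
Cox6a1, chr5:115349103-115349130, minus strand: caggaacgggGCGCATGCgcgctctcgc
Ndufa11, chr17:56717692-56717719, plus strand: cctgcactgcGCGCATGCgcgcacgcct
Ndufa6, chr15:82354357-82354384, minus strand: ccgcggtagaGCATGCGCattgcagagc
Ndufa8, chr2:36049339-36049356, minus strand: cgctggagacGCATGCGC
Sdhb, chr4:140961207-140961234, plus strand: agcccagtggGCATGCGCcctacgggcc

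The promoters with the core belong to complex I (Ndufa6, Ndufa8, Ndufa11), complex II (Sdhb), complex IV (Cox6a1) and complex V (Atp5g2, Atp5k, Atp5l), and the core overlapped no other motif searched. The other motifs overlapped in 1 member promoter, that of Ndufs3, where an ETS core and a GC box shared letters. The values of these genes were not alike, since Ndufa8 and Ndufa11 were low in CAR KO sample 5, at -0.42 each, and Atp5l and Ndufa6 were near the other samples, at -0.026 and -0.010. The ETS core CCGGAAG was in 12 of 70 promoters (17.1%), against 6.91% of all and 11.5% of those of genes above background. The GC box GGGCGG was in 23 (32.9%), against 32.7% and 54.8%, and the estrogen-related receptor motif AAGGTCA in 4 (5.71%), against 4.08% and 2.96%. The YY1 core AAGATGGC was in 1 promoter (1.43%), against 1.56% and 1.76%. The E-box CAGCTG was in 6 (8.57%), against 13% and 12.9%, among them that of Cox8b, and TATAAA in 8 (11.4%), against 12.4% and 7.02%. A match describes letters in a window, and no binding was measured.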

How the data were processed

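Hearts were profiled on Affymetrix Mouse Gene 1.0 ST arrays, 1 per sample. The deposited table holds 1 log2 signal per probe set and sample as the authors processed it. The submitters' processing notes name MAS5, and the sources used here do not give the normalisation of the arrays. Array medians lay between 7.65 and 7.73 and correlations between samples between 0.9866 and 0.9982. An array has no read depth, and the 5 samples per genotype limit the precision. Of 35556 rows, 6612 control rows were left out and 28944 probe sets tested, of which 21789 name 1 gene, 1621 several and 5534 none in the platform annotation. All 79 members were matched to RefSeq (GRCm38.p6) by Entrez identifier, which gave the coordinates.

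CAR KO and WT were compared with limma 3.58.1 (lmFit and eBayes, R 4.3.3) in 1 fit over all probe sets, with Benjamini-Hochberg adjustment at 0.05 and 95% intervals. The fit was first tested on simulated data. The members and lists were chosen with earlier results of these data known, so no test was made over a list. The text names, per complex, the 3 members with the brightest probe sets and the 2 with the lowest p, every member with p under 0.05, tissue forms, and the smallest p of each pathway list. Others were chosen after their values were seen. The marker lists covered cardiomyocytes, liver and yolk sac, blood, endothelium, macrophages, cushion mesenchyme, epicardium and foregut. Alternatives changed the normalisation, filter, variance model, weights, test, block, probe set rule or samples. The run without both samples numbered 5 was added after the data were seen.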

Additional observations from a re-analysis of the deposited data

Results flagged for a closer look

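In the CAR KO group, sample 5 stood apart from the nearest other sample by a gap that was large against the range of the group. The gap, divided by that range, was 0.774 for Atp5g2, 0.801 for Cox6c and 0.739 for Cox7a1, where 0.71 is the critical value for 5 samples. It was 0.741 for the mean deviation of all 79 subunits, 0.718 for complex I, 0.718 for complex III and 0.76 for complex V. Of 82 groups examined 7 passed, where chance gives about 4.1, and the complex means share genes with the mean of all subunits.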

How the results depend on the processing

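No subunit had an adjusted p under 0.05 in any of the 21 alternatives. The count with an unadjusted p under 0.05 was 1 (Uqcrb), and became 0 with median centring, 3 with array weights (Atp5g2, Cox4i2 and Uqcrb), 5 without the 3 liver-rich samples, and 0 to 2 when a sample was left out in turn. The samples whose removal gave 0 were WT samples 1, 3 and 4 and CAR KO sample 2. Without CAR KO sample 4 it was Atp5e, and without sample 5 Cox7a1 and Ndufa1, in place of Uqcrb. Array weights called 2 probe sets of the whole array in place of 1. Leaving out a sample in turn moved the median log2 fold change between -0.045 and 0.051. It left 55 to 68 subunits with an interval within 1.2-fold, beside 61 for the methods' t-test. The number of higher subunits went from 32 to 16 without CAR KO sample 4 and to 67 without CAR KO sample 5. CAR KO sample 4 was the highest for 36 subunits and CAR KO sample 5 the lowest for 65. For these subunits the direction of the move was fixed in advance. Of 902 values of the 43 named genes under the alternatives, none changed its call. None moved by more than the spread between replicates, the mean of the 2 group SDs. Leaving out 1 of 5 samples cannot move a value that far. The filter, variance model, test and block settings leave each fold change as it is. The absence of larger moves in those settings was therefore fixed in advance and does not show stability. Beyond these fixed directions, the cause of the changes in counts and medians was not tested.

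In a fit with the label number of the samples as a block, 1 subunit had an unadjusted p under 0.05 and none an adjusted one, and 74 intervals lay within 1.2-fold. Over the whole array 1304 probe sets had an unadjusted p under 0.05, against 696. Correlations of the deviations of samples 1 to 5 with their counterparts were 0.201, 0.474, 0.331, 0.0727 and 0.561. All were above 0 and 4 of 5 above 0.1. Pairing was to be accepted only with every value above 0.1, since the labels give no shared litter or batch, so the block stayed an alternative and pairing is neither shown nor refuted.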
